A study of Homo sapiens with 8 samples.

Results

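Untreated NB4 cells were set against untreated Kasumi-1 cells, 1 RNA-seq library of total RNA each, to describe how the transcriptomes of these human leukaemia lines differ before any drug. NB4 is a line from a patient with acute promyelocytic leukaemia, which is driven by the fusion protein PML-RARA. Kasumi-1 comes from an acute myeloid leukaemia in which the translocation t(8;21) joined RUNX1 to RUNX1T1. Neither line was treated in this pair; both grew in RPMI medium with 10% fetal bovine serum. The other 6 libraries of the study, used below as separate evidence on the lines, are NB4 and Kasumi-1 cells after 6, 12 and 24 h with 40 uM chlorprothixene, an antipsychotic of the thioxanthene class. Each library stands for 1 culture of 1 cell line, and each line comes from a single patient, so a difference between the lines need not hold between the leukaemia types. Levels are given in TPM, a transcript abundance scaled for transcript length and to the same total in each library. Of 55765 gene symbols, 11565 reached 5 TPM in NB4 or Kasumi-1; 40 of these lie between 28 and 34 Mb of chromosome 6 and were set aside, which left 11525 genes, 10135 of them protein-coding.

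Both leukaemias are blocks in the maturation of granulocytes. PML-RARA holds cells at the promyelocyte, the stage that makes primary (azurophilic) granules filled with myeloperoxidase, serine proteases and proteoglycan, while RUNX1-RUNX1T1 holds cells at a more immature myeloblast that often keeps the stem and progenitor antigens CD34 and KIT. PU.1, C/EBP and RUNX proteins are the main transcription factors that open granule and receptor genes in this lineage, and HOX, ERG and TAL1 proteins act earlier.

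Between 13358 and 14582 genes reached 1 TPM in a library, 13477 in untreated NB4 and 14004 in untreated Kasumi-1. The commonest ratio of coverage to FPKM, which moves with sequencing depth, was 9.17 and 8.24 in the NB4 and Kasumi-1 libraries, within the range of 7.08 to 9.83 over all 8, and the number of reads is not known. Mitochondrially encoded genes took 6.71% of the TPM in untreated NB4 and 8.73% in untreated Kasumi-1 (17.1% in Kasumi-1 at 24 h), and the 10 most abundant genes took 7.31% and 9.25%. Among the 15 most abundant nuclear genes of each line, 10 were shared. EEF1A1, a translation elongation factor, ranked first in both (12930 TPM in NB4 against 14540 TPM in Kasumi-1), and MPO, which encodes myeloperoxidase, ranked 4 in NB4 (4889 TPM) and 2 in Kasumi-1 (9908 TPM).

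The lines shared most of their expressed genes and a smaller set was close to private to 1 line. Of the 11525 genes, 9366 had at least 5 TPM in both lines, 330 had at least 5 TPM in NB4 and under 1 TPM in Kasumi-1, and 599 had the reverse. Differences below are log2(TPM + 1) in NB4 minus Kasumi-1, which understates the fold of low genes; their median was -0.04 and their quartiles were -0.63 and 0.52. At least 2-fold higher in NB4 were 1554 genes (13.5%), and at least 2-fold higher in Kasumi-1 were 1869 (16.2%). These shares are the background for the counts of gene lists below. At least 8-fold higher were 312 genes in NB4 (2.71%) and 531 in Kasumi-1 (4.61%). The edges of these classes were densely filled: 398 genes had their higher value at 5 to 6 TPM and 500 at 4 to 5 TPM, just outside, and 373 genes differed by 1.0 to 1.1 on the log2 scale against 393 by 0.9 to 1.0. Listed at exactly 0, which can be a failed estimate, were 255 of the genes in NB4 and 124 in Kasumi-1; 128 and 55 of them stood at 0 in all 4 libraries of that line. Without the genes listed at 0, the 8-fold counts were 216 in NB4 and 323 in Kasumi-1, and on the FPKM scale, where adding 1 weighs more, they were 178 and 283.

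**Figure D1:**
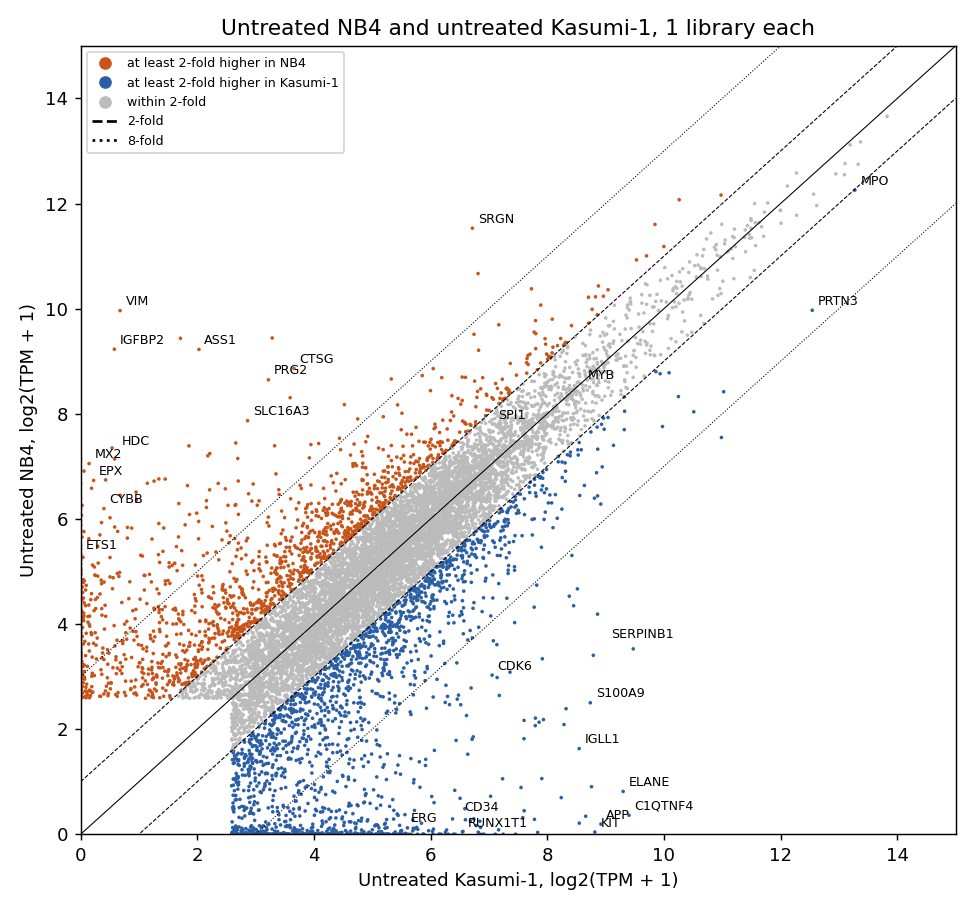
Each point is 1 of the 11525 genes, with its log2(TPM + 1) in untreated Kasumi-1 on the horizontal axis and in untreated NB4 on the vertical axis; dashed and dotted lines mark 2-fold and 8-fold. VIM and IGFBP2 stand far above the diagonal at the left, KIT, C1QTNF4 and ELANE far below it at the right, and the 9366 genes with at least 5 TPM in both lines form the diagonal band.

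With 1 library a line, the untreated pair allows no test. The same lines after 6, 12 and 24 h with chlorprothixene give other libraries in which a difference can be looked for, with the limits that drug and line may interact and that the times of a line are not replicate cultures. Of the genes at least 8-fold higher in untreated NB4, 283 of 312 (90.7%) were also at least 2-fold higher at each treated time, and of those 8-fold higher in untreated Kasumi-1, 509 of 531 (95.9%) held in the same way. Of all genes past 2-fold, 893 of 1554 (57.5%) on the NB4 side and 1123 of 1869 (60.1%) on the Kasumi-1 side did so. In limma on the 6 treated libraries, with time as a term and 2 residual degrees of freedom, 3533 of the 11525 genes were higher in NB4 (30.7%) and 3076 lower (26.7%) at an adjusted p under 0.05. These shares are the background for the limma counts of gene lists below. This test called 87.3% of the genes 2-fold higher in untreated NB4 in that direction, 11.8% of all genes, and 86.6% of the genes 2-fold higher in untreated Kasumi-1, 14.0% of all genes. Of the 8-fold classes it called 299 genes on the NB4 side (2.59% of all) and 519 on the Kasumi-1 side (4.5% of all). It called 9 and 19 genes of the 2-fold classes in the opposite direction. Among the members of gene lists named in the text, NFKBIA, CD3D, TNFAIP3 and ICAM1 were called in the opposite direction. MYC, EGR1, JUND, CCL5, IL1B, CDKN1A, CDKN1B, SQLE, IDI1, MS4A3, NEAT1, S100A10 and VLDLR, each past 2-fold untreated, were not called. RAB8B and the CCL3L and CCL4L copies are in no list and are described below.

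**Figure D2:**
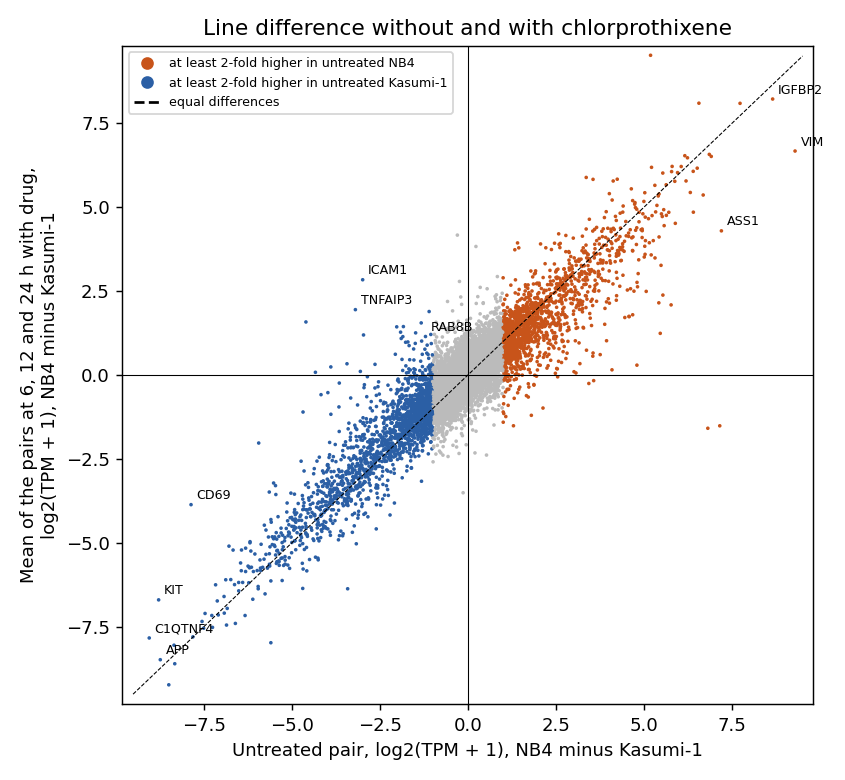
The untreated difference of each gene (horizontal) is set against the mean difference at 6, 12 and 24 h with the drug (vertical), both as log2(TPM + 1) in NB4 minus Kasumi-1. The large differences lie near the line of equality, while ICAM1, TNFAIP3 and RAB8B fall in the upper left, with higher values in Kasumi-1 untreated and in NB4 under the drug.

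The 15 protein-coding genes furthest above Kasumi-1 in NB4, among those that held at each treated time, were of varied function. VIM, the intermediate filament vimentin, had 997 TPM in NB4 against 0.598 TPM in Kasumi-1 (difference 9.29). The 3 treated NB4 libraries had 812.5 to 1575 TPM of VIM and the 3 treated Kasumi-1 libraries 4.86 to 15.9 TPM. The genes of this list were picked for a difference at each treated time, so such gaps are no separate support. IGFBP2, a secreted binder of insulin-like growth factors, had 599 TPM in NB4 against 0.493 TPM in Kasumi-1. ASS1, the argininosuccinate synthase that makes arginine from citrulline, had 597 TPM in NB4 against 3.08 TPM in Kasumi-1, where treated libraries reached 72.0 TPM. PYCR1, which completes proline synthesis in mitochondria, had 94.9 TPM in NB4 against 0.139 TPM in Kasumi-1. HDC, which makes histamine, had 140.1 TPM in NB4 against 0.497 TPM in Kasumi-1, and EPX, the eosinophil peroxidase, had 105 TPM in NB4 against 0.167 TPM in Kasumi-1. Both enzymes are textbook products of basophils and eosinophils, lineages that neither label names. MX2, an interferon-induced restriction factor, had 132 TPM in NB4 against 0.105 TPM in Kasumi-1, and SLFN11, which stalls replication forks under DNA damage, had 75.6 TPM in NB4 against 0.0177 TPM in Kasumi-1. CAPG, an actin-capping protein, had 106 TPM in NB4 against 0.346 TPM in Kasumi-1, and CES1, a carboxylesterase, 119 TPM in NB4 against 0.0407 TPM in Kasumi-1. RETN, the cytokine resistin, HSH2D, an adaptor, and GRB10, an adaptor of insulin receptor signalling, were listed at 0 in Kasumi-1 and stood at 102, 83.5 and 72.1 TPM in NB4. HSH2D overlaps RAB8A on the same strand (82.9 TPM in NB4 against 66.3 TPM in Kasumi-1), which makes its estimate uncertain. The X-linked homeobox genes RHOXF2 (695 TPM in NB4 against 8.75 TPM in Kasumi-1) and RHOXF2B (692 TPM in NB4 against 2.27 TPM in Kasumi-1) are near-identical copies whose reads cannot be assigned with certainty. VIM has an antisense partner, VIM-AS1 (4.89 TPM in NB4 against 0.249 TPM in Kasumi-1), and since the use of strand in counting is not stated, reads of such pairs cannot be told apart; PITX1 and PCSK6, described below, also overlap antisense genes.

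In Kasumi-1, the 15 genes furthest above NB4 include a growth factor receptor, a neutrophil protease and several secreted or membrane proteins. KIT, the receptor of stem cell factor, had 0.0295 TPM in NB4 against 449.8 TPM in Kasumi-1 (difference -8.78). Under the drug, KIT stood at 0.0589 to 0.311 TPM in NB4 against 72.5 to 192 TPM in Kasumi-1. The genes of this list too were picked for a difference at each treated time. ELANE, the neutrophil elastase, had 0.759 TPM in NB4 against 629.7 TPM in Kasumi-1. APP, the amyloid precursor protein, had 0.143 TPM in NB4 against 484 TPM in Kasumi-1, and C1QTNF4, a secreted C1q-related protein, 0.285 TPM in NB4 against 676 TPM in Kasumi-1. CTHRC1, a secreted collagen-associated protein, had 0.158 TPM in NB4 against 374 TPM in Kasumi-1. CD69, an early activation antigen of leukocytes, had 0.872 TPM in NB4 against 432 TPM in Kasumi-1, and the gap was smaller in treated cells, 4.52 to 14.5 TPM in NB4 against 62.0 to 256 TPM in Kasumi-1. IGLL1, the surrogate light chain of precursor B cells, had 2.09 TPM in NB4 against 373 TPM in Kasumi-1. OAT, ornithine aminotransferase, and MAGED1, a MAGE family protein, were listed at 0 in NB4 and stood at 137 and 175 TPM in Kasumi-1. The rest were SERPINB6, an intracellular protease inhibitor (0.0240 TPM in NB4 against 228 TPM in Kasumi-1), ITM2A, a membrane protein (0.621 TPM in NB4 against 301 TPM in Kasumi-1), and GPX7, an endoplasmic reticulum peroxidase (0.245 TPM in NB4 against 191 TPM in Kasumi-1). The list closes with PITX1, a homeodomain factor (0.363 TPM in NB4 against 194 TPM in Kasumi-1), MFNG, a Notch glycosyltransferase (0.0600 TPM in NB4 against 143 TPM in Kasumi-1), and NBL1, a bone morphogenetic protein antagonist (0.00104 TPM in NB4 against 119.5 TPM in Kasumi-1).

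Promoters of genes at the ends of this contrast were read for motifs of the lineage's factors, since PU.1, C/EBP and RUNX act on such genes and RUNX1-RUNX1T1 keeps the DNA-binding domain of RUNX1. The 250 bases before the RefSeq start (GRCh38.p14) of 4 genes are shown. These are VIM and CTSG (cathepsin G, described below) for NB4 and CD34 and IGLL1 for Kasumi-1. The 4 windows were chosen by hand, each holds a motif match, and they do not stand for the promoters of either class. They run 5′ to 3′ in the sense of the gene, and capitals mark TGTGGT (RUNX), GAGGAA (the core read by PU.1) and CAGCTG (E-box), on either strand.
VIM (chr10:17227991-17228240, plus strand): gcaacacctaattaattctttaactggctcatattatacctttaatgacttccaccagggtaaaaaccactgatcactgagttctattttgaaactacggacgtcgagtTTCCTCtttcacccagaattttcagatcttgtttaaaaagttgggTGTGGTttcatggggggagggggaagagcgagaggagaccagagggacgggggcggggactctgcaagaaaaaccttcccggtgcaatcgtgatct
CTSG (chr14:24576251-24576500, minus strand): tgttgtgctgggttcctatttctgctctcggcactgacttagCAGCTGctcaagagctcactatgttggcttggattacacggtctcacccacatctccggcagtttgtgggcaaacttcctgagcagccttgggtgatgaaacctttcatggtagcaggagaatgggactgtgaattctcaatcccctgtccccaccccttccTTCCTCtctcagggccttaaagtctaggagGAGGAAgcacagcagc
CD34 (chr1:207911126-207911375, minus strand): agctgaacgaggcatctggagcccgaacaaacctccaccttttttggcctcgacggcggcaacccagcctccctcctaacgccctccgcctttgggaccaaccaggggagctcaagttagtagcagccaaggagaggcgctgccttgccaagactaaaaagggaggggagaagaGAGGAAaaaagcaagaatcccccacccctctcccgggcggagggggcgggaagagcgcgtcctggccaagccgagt
IGLL1 (chr22:23580291-23580540, minus strand): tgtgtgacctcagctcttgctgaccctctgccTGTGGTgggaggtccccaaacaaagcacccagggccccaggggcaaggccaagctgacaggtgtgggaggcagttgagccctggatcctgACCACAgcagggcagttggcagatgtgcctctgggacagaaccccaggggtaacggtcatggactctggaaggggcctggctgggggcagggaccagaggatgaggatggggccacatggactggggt
The window of VIM held 1 RUNX and 1 PU.1 match, that of CTSG 2 PU.1 matches and 1 E-box, that of CD34 1 PU.1 match and that of IGLL1 2 RUNX matches. Of the protein-coding genes at least 8-fold higher in NB4, 180 of 259 had a promoter in the RefSeq table, and of those 8-fold higher in Kasumi-1, 360 of 464, against 8381 of 10135 for all protein-coding genes compared. TGTGGT was found in 7.22% of the NB4 promoters, 10.0% of the Kasumi-1 promoters and 7.40% of all. GAGGAA was found in 28.3% of the NB4 promoters, 21.7% of the Kasumi-1 promoters and 22.7% of all. The C/EBP letters TTNNGCAA stood in 6.11%, 4.44% and 5.70% of these promoters in the same order, the AP-1 letters TGANTCA in 6.11%, 4.17% and 3.20%, the GATA letters AGATAA in 5.0%, 5.83% and 4.01%, and CAGCTG in 9.44%, 11.1% and 11.9%. Mean GC content was 63.6%, 65.0% and 64.7%. These shares are descriptions of short windows, carry no test, and say nothing of binding.

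The genes of the fusions separated the lines at RUNX1T1. RUNX1T1, the corepressor gene on chromosome 8 that t(8;21) joins to RUNX1, had 0.0307 TPM in NB4 against 92.5 TPM in Kasumi-1, and at most 0.0476 TPM in treated NB4 against at least 58.0 TPM in treated Kasumi-1. RUNX1, the core-binding factor gene, had 58.3 TPM in NB4 against 122 TPM in Kasumi-1 (difference -1.05), and limma on the treated libraries called it lower in NB4 (log2 -0.98, SE 0.19, adjusted p = 0.00757, 3 of 3 times). PML, a nuclear body protein, had 41.2 TPM in NB4 against 48.2 TPM in Kasumi-1, and RARA, the retinoic acid receptor, 30 TPM in NB4 against 24.6 TPM in Kasumi-1. Both stayed within 2-fold and limma did not call them (PML adjusted p = 0.879, RARA adjusted p = 0.43). Gene-level values do not tell a fusion transcript from its unrearranged partner. RXRA, the usual dimer partner of RARA, had 70.5 TPM in NB4 against 25.6 TPM in Kasumi-1, and DHRS9, a retinol dehydrogenase, 9.48 TPM in NB4 against 31.7 TPM in Kasumi-1. RDH10, another retinol dehydrogenase, had 8.89 TPM in NB4 against 8.73 TPM in Kasumi-1, and the remaining 15 of 18 retinoid genes stayed under 5 TPM in both lines.

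Genes that mark the 2 leukaemia types in patients followed the labels in part. Of 14 markers of t(8;21) leukaemia, 8 were compared: 2 were at least 2-fold higher in NB4 and 5 in Kasumi-1, with a median difference of -2.20 against -0.04 over all genes. Over so few genes this median depended on the settings, at -0.84 with genes down to 1 TPM (10 genes), -1.35 on rescaled TPM and -3.87 with a pseudocount of 0.1 TPM. POU4F1, a POU homeodomain factor, and TRH, thyrotropin-releasing hormone, were listed at 0 in NB4 and stood at 23 and 16.1 TPM in Kasumi-1. SIPA1L2 (0.371 TPM in NB4 against 40.3 TPM in Kasumi-1), ROBO1, an axon guidance receptor (0.0104 TPM in NB4 against 7.80 TPM in Kasumi-1), and PRAME, a tumour antigen (2.21 TPM in NB4 against 6.80 TPM in Kasumi-1), were also higher in Kasumi-1. VLDLR, a lipoprotein receptor, went the other way, with 34.6 TPM in NB4 against 2.04 TPM in Kasumi-1, although limma on the treated libraries did not call VLDLR (log2 0.56, adjusted p = 0.16). CCND2, cyclin D2, had 59.1 TPM in NB4 against 55.0 TPM in Kasumi-1. PAX5, PSD3, CAV1, CAV2, IL5RA and PRDM16 stayed under 5 TPM in both lines. Of 14 markers of promyelocytic leukaemia, 8 were compared, 5 of them at least 2-fold higher in NB4 and 2 in Kasumi-1 (median 1.96). Beside IGFBP2, the higher ones in NB4 were CST7, the inhibitor cystatin F (105 TPM in NB4 against 5.51 TPM in Kasumi-1), STAB1, a scavenger receptor (24.2 TPM in NB4 against 3.20 TPM in Kasumi-1), ANXA8, an annexin (44.2 TPM in NB4 against 8.19 TPM in Kasumi-1), and LGALS12, a galectin (75 TPM in NB4 against 23.8 TPM in Kasumi-1). HGF, hepatocyte growth factor, ran against its list, with 3.54 TPM in NB4 against 244 TPM in Kasumi-1, and so did the proprotein convertase PCSK6, with 0.294 TPM in NB4 against 46.2 TPM in Kasumi-1. CLEC11A, a haematopoietic growth factor, had 553 TPM in NB4 against 709.5 TPM in Kasumi-1, and FGF13, CCNA1, PTGDS, TNFRSF4, GABRE and MEG3 did not reach the floor.

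Stem and progenitor genes were higher in Kasumi-1 without an exception past 2-fold. Of 30 such genes, 18 were compared, 0 were at least 2-fold higher in NB4 and 11 in Kasumi-1, with a median difference of -2.95; limma on the treated libraries called 1 higher in NB4 and 12 lower. CD34, the antigen of haematopoietic stem and progenitor cells, had 0.0273 TPM in NB4 against 112 TPM in Kasumi-1, and 0 to 0.0358 TPM in treated NB4 against 18.3 to 57.5 TPM in treated Kasumi-1. The ETS factor ERG had 0.0387 TPM in NB4 against 64.5 TPM in Kasumi-1, and the basic helix-loop-helix factor TAL1 0.221 TPM in NB4 against 40.2 TPM in Kasumi-1. LAPTM4B, a lysosomal membrane protein of stemness signatures, had 3.19 TPM in NB4 against 221 TPM in Kasumi-1, and SOX4, an HMG-box factor, 12.3 TPM in NB4 against 104 TPM in Kasumi-1. CDK6, the G1 kinase active in progenitors, had 7.15 TPM in NB4 against 132 TPM in Kasumi-1, with the 3 treated Kasumi-1 libraries at 117.6 to 120.2 TPM. CD200, an immune checkpoint ligand, and BAALC, a marker of immature blasts, were listed at 0 in NB4 and stood at 24.1 and 14.3 TPM in Kasumi-1. MSI2, an RNA-binding protein (13.3 TPM in NB4 against 38.8 TPM in Kasumi-1), and ZNF521, a zinc finger corepressor (0.0638 TPM in NB4 against 7.06 TPM in Kasumi-1), complete the 11 with KIT. Within 2-fold stood MYB (375 TPM in NB4 against 387 TPM in Kasumi-1), LMO2 (65.0 TPM in NB4 against 84.8 TPM in Kasumi-1), GATA2 (47.5 TPM in NB4 against 77.6 TPM in Kasumi-1), SOCS2, FLT3, DNMT3B and TRIB2. The other 12 members, among them PROM1, MEIS1, MECOM, HLF and SPINK2, stayed under 5 TPM in both lines.

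HOX genes showed the reverse balance. Of 28 HOX genes and cofactors, 9 were compared, 6 of them at least 2-fold higher in NB4 and 1 in Kasumi-1 (median 1.91). HOXB9 and HOXC10 were listed at 0 in untreated Kasumi-1 and had 54.1 and 44.1 TPM in NB4. HOXA13 had 12.6 TPM in NB4 against 0.0203 TPM in Kasumi-1, HOXA11 20.5 TPM in NB4 against 4.73 TPM in Kasumi-1, HOXA10 65.6 TPM in NB4 against 21.4 TPM in Kasumi-1, and the cofactor PBX3 8.17 TPM in NB4 against 0.0306 TPM in Kasumi-1. HOXA5, in the same HOXA cluster, had 1.15 TPM in NB4 against 21.6 TPM in Kasumi-1. HOTTIP, the long noncoding RNA at the HOXA13 end of that cluster, had 6.99 TPM in NB4 and was listed at 0 in all 4 Kasumi-1 libraries. HOXA9, often high in other myeloid leukaemias, had 0.801 TPM in NB4 against 0.367 TPM in Kasumi-1.

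The factors that drive granulocyte and monocyte genes were present in both lines and differed one by one. Of 45 myeloid and haematopoietic transcription factors, 35 were compared, 7 at least 2-fold higher in NB4 and 7 in Kasumi-1, with a median of -0.11. SPI1, which encodes PU.1, had 222 TPM in NB4 against 132 TPM in Kasumi-1, within 2-fold, and limma on the treated libraries did not call it (adjusted p = 0.0853). CEBPD had 151 TPM in NB4 against 3.64 TPM in Kasumi-1, and CEBPA, the factor that starts granulocyte commitment, 73.6 TPM in NB4 against 13.7 TPM in Kasumi-1. In the treated libraries CEBPA stayed at 68.8 to 92.8 TPM in NB4 against 10.7 to 13.9 TPM in Kasumi-1 (limma log2 2.70, SE 0.13, adjusted p = 6.56e-05, 3 of 3 times). CEBPE, of later granulocytes, had 97.5 TPM in NB4 against 129 TPM in Kasumi-1, and CEBPB 49.6 TPM in NB4 against 33.5 TPM in Kasumi-1. KLF4, a monocyte factor, had 6.64 TPM in NB4 and was listed at 0 in all 4 Kasumi-1 libraries. WT1 (59.3 TPM in NB4 against 13.2 TPM in Kasumi-1), NFE2 (27.2 TPM in NB4 against 1.73 TPM in Kasumi-1), PER2 (20.6 TPM in NB4 against 7.28 TPM in Kasumi-1) and MYC (86.2 TPM in NB4 against 41.0 TPM in Kasumi-1) were also higher in NB4. MYC did not keep its side at each treated time (difference -0.06 at 6 h), and limma did not call it (log2 0.54, adjusted p = 0.1). MYCN, the MYC paralogue, took the opposite side, with 0.0603 TPM in NB4 against 31.0 TPM in Kasumi-1. ID1, an inhibitor of helix-loop-helix factors, had 0.785 TPM in NB4 against 84.3 TPM in Kasumi-1, KLF2 1.04 TPM in NB4 against 24.9 TPM in Kasumi-1, and EGR1 14.4 TPM in NB4 against 56.6 TPM in Kasumi-1. GFI1, a transcriptional repressor active in granulocyte progenitors, had 178 TPM in NB4 against 325 TPM in Kasumi-1. FLI1, IKZF1, ETV6, ZEB2 and RUNX2 stood within 2-fold.

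**Figure D3:**
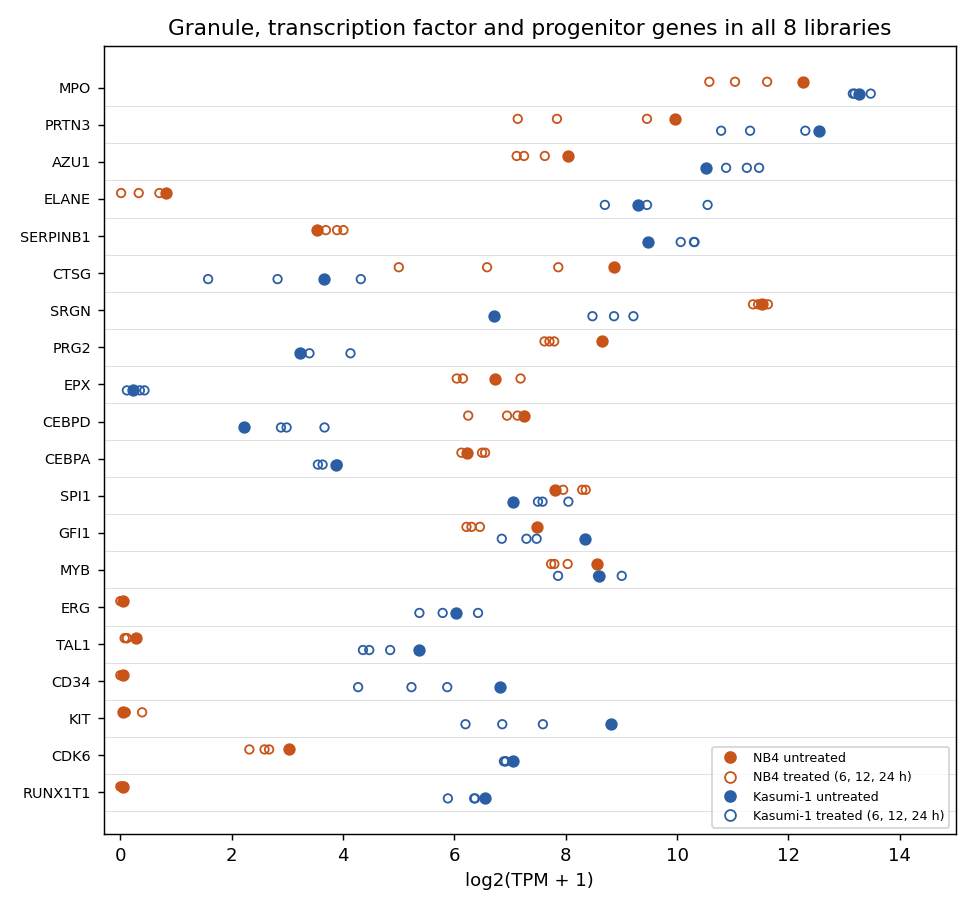
Rows are 20 granule, transcription factor and progenitor genes and the horizontal axis is log2(TPM + 1); filled points are the untreated libraries and open points the libraries at 6, 12 and 24 h, with NB4 drawn above Kasumi-1 in each row. ELANE, SERPINB1, CD34, KIT, ERG, TAL1 and RUNX1T1 separate the lines with Kasumi-1 on the high side, SRGN, PRG2, EPX and CEBPA with NB4 on the high side, while SPI1 and MYB overlap.

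Primary granule genes, the product of the promyelocyte, were strongly expressed in both lines but in different mixtures. Of 22 genes, 20 were compared, 12 at least 2-fold higher in NB4 and 6 in Kasumi-1, with a median of 1.90; their summed level was 11290 TPM in NB4 against 19270 TPM in Kasumi-1. In bulk RNA, fewer cells of a type and less RNA per cell cannot be told apart. Kasumi-1 had more of the serine protease family transcripts encoded on chromosome 19: beside ELANE, PRTN3 (proteinase 3) had 1002 TPM in NB4 against 5971 TPM in Kasumi-1, and AZU1 (azurocidin) 262 TPM in NB4 against 1460 TPM in Kasumi-1. MPO, given above, was also higher in Kasumi-1 (difference -1.02). SERPINB1, the cytosolic inhibitor of these proteases, had 10.5 TPM in NB4 against 711 TPM in Kasumi-1, and BPI, a bactericidal protein, 0.0628 TPM in NB4 against 8.17 TPM in Kasumi-1. CTSG, cathepsin G, had 464 TPM in NB4 against 11.6 TPM in Kasumi-1, and its level under the drug was 31.0 to 232 TPM in NB4 against 1.98 to 19 TPM in Kasumi-1. SRGN, the serglycin proteoglycan that packs granule proteins, had 2961 TPM in NB4 against 104 TPM in Kasumi-1. Eosinophil granule genes were on the NB4 side: PRG2, major basic protein, had 399.9 TPM in NB4 against 8.32 TPM in Kasumi-1, RNASE2 325 TPM in NB4 against 124 TPM in Kasumi-1, and RNASE3 15.9 TPM in NB4 against 1.65 TPM in Kasumi-1. The defensin gene DEFA4 had 13.8 TPM in NB4 and was listed at 0 in all 4 Kasumi-1 libraries, as were DEFA1 and DEFA3 (10.1 and 10.4 TPM in NB4), near-identical copies whose reads may be shared. MS4A3 (94.8 TPM in NB4 against 16.9 TPM in Kasumi-1) and CTSC, which activates the serine proteases (547 TPM in NB4 against 259 TPM in Kasumi-1), were also higher in NB4, with CST7 given above. LYZ, lysozyme, had 51.9 TPM in NB4 against 25.5 TPM in Kasumi-1, and CFD, adipsin, 22.3 TPM in NB4 against 20.7 TPM in Kasumi-1. The members not compared were PRG3 (0.541 TPM in NB4 against 0.604 TPM in Kasumi-1) and CLC, the Charcot-Leyden crystal protein of eosinophils, listed at 0 in NB4 and at 0.767 TPM in Kasumi-1. Genes of later granules were nearly silent: of 16, MMP9, the gelatinase, was compared (43.6 TPM in NB4 against 0.225 TPM in Kasumi-1), and LTF, LCN2, MMP8, CEACAM8, CRISP3, CD177 and ORM1 were listed at 0 in both.

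Monocyte and phagocyte genes split between the lines. Of 42, 21 were compared, 8 at least 2-fold higher in NB4 and 9 in Kasumi-1. Their median was -0.04, and 0.92 over 27 genes when those down to 1 TPM were let in. ITGAM, the CD11b integrin, and TYROBP, the DAP12 adaptor, were listed at 0 in untreated Kasumi-1 and had 8.27 and 11.2 TPM in NB4, while FCER1G, the Fc receptor gamma chain, had 33.7 TPM in NB4 against 2.36 TPM in Kasumi-1. FCN1, ficolin-1, had 22.9 TPM in NB4 against 0.138 TPM in Kasumi-1. On the other side, S100A9, a calprotectin subunit, had 4.66 TPM in NB4 against 426 TPM in Kasumi-1, while its partner S100A8 stayed at 0.318 TPM in NB4 against 0.770 TPM in Kasumi-1. CLEC5A, a lectin receptor that signals through DAP12, had 2.52 TPM in NB4 against 193 TPM in Kasumi-1. FCAR, the IgA receptor, had 0.826 TPM in NB4 against 9.84 TPM in Kasumi-1, and FPR2, a formyl peptide receptor, 0.0896 TPM in NB4 against 11.1 TPM in Kasumi-1. The subunits of the phagocyte NADPH oxidase did not move together: CYBB, the catalytic subunit, had 72.3 TPM in NB4 against 0.319 TPM in Kasumi-1, and its membrane partner CYBA 308 TPM in NB4 against 317 TPM in Kasumi-1. Cytosolic subunits were higher in Kasumi-1, with NCF4 at 58.5 TPM in NB4 against 128 TPM in Kasumi-1 and NCF1, which has near-identical pseudogenes, at 2.49 TPM in NB4 against 22.8 TPM in Kasumi-1. CD14, VCAN, CD163, MRC1, FCGR3A and S100A12 were at or under 0.0624 TPM in both lines.

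The myeloid surface antigens CD33 and CD13 were present in both lines, and other antigens used to type leukaemia differed. CD33 had 61.5 TPM in NB4 against 48.5 TPM in Kasumi-1, and ANPEP, which is CD13, 293 TPM in NB4 against 248 TPM in Kasumi-1. Of 27 antigens, 21 were compared, 8 at least 2-fold higher in NB4 and 7 in Kasumi-1. Higher in NB4 were PTPRC, the pan-leukocyte antigen CD45 (102 TPM in NB4 against 19.1 TPM in Kasumi-1), CD4 (171 TPM in NB4 against 24.8 TPM in Kasumi-1), SPN, which is CD43 (146 TPM in NB4 against 27.6 TPM in Kasumi-1), CD9 (18.6 TPM in NB4 against 0.196 TPM in Kasumi-1), CD82 (41.1 TPM in NB4 against 2.33 TPM in Kasumi-1) and CD38 (11.8 TPM in NB4 against 0.653 TPM in Kasumi-1). NCAM1, the CD56 antigen, had 11.1 TPM in NB4 and was listed at 0 in all 4 Kasumi-1 libraries. Higher in Kasumi-1 were CD96 (0.0480 TPM in NB4 against 61.5 TPM in Kasumi-1), the endothelial and progenitor antigen ENG (0.444 TPM in NB4 against 38.3 TPM in Kasumi-1), CD44 (8.13 TPM in NB4 against 60.4 TPM in Kasumi-1), CD99 (159.6 TPM in NB4 against 465 TPM in Kasumi-1) and CD226, listed at 0 in NB4 (25.3 TPM in Kasumi-1).

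Cytokine receptors differed by gene, also within a receptor. Of 31, 21 were compared, 4 at least 2-fold higher in NB4 and 8 in Kasumi-1. CSF3R, the receptor of granulocyte colony-stimulating factor, had 38.5 TPM in NB4 against 342 TPM in Kasumi-1, while CSF2RA, of the granulocyte-macrophage factor receptor, had 18.4 TPM in NB4 against 6.66 TPM in Kasumi-1. IL6R, the ligand-binding chain for interleukin-6, had 38.9 TPM in NB4 against 1.52 TPM in Kasumi-1, and IL6ST, its signalling chain, 4.26 TPM in NB4 against 19.2 TPM in Kasumi-1. INSR, the insulin receptor, had 17.2 TPM in NB4 against 2.20 TPM in Kasumi-1. TNFRSF1B, the second receptor of tumour necrosis factor, had 0.170 TPM in NB4 against 21.9 TPM in Kasumi-1, whereas TNFRSF1A had 129.6 TPM in NB4 against 113 TPM in Kasumi-1. TGFBR2 had 15.3 TPM in NB4 against 83.5 TPM in Kasumi-1, and TGFBR1 24.9 TPM in NB4 against 24.4 TPM in Kasumi-1. Downstream, STAT5A had 43.0 TPM in NB4 against 238 TPM in Kasumi-1, JAK3 was listed at 0 in NB4 and had 13.2 TPM in Kasumi-1, and SOCS3, a feedback inhibitor, had 0.282 TPM in NB4 against 10.5 TPM in Kasumi-1. STAT6 had 84.0 TPM in NB4 against 32.7 TPM in Kasumi-1. In all, 2 of 16 STAT and SOCS genes were at least 2-fold higher in NB4 and 3 in Kasumi-1, against 13.5% and 16.2% of all genes.

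Among chemokine, adhesion and clotting genes, more members past 2-fold were on the Kasumi-1 side than on the NB4 side. Of 21 chemokines and receptors, 7 were compared, 2 at least 2-fold higher in NB4 and 4 in Kasumi-1 (median -3.15, and -0.13 over 10 genes when those down to 1 TPM were let in). The neutrophil chemokine gene IL8 had 4.24 TPM in NB4 against 319 TPM in Kasumi-1, CXCL2 1.05 TPM in NB4 against 51.5 TPM in Kasumi-1, and CXCL3 0.353 TPM in NB4 against 11 TPM in Kasumi-1, while CXCL1 was listed at 0 in all 4 NB4 libraries and had 44.6 TPM in Kasumi-1. With the drug IL8 stood at 134 to 277 TPM in NB4 against 266 to 1477 TPM in Kasumi-1. CCL5 had 118 TPM in NB4 against 55.2 TPM in Kasumi-1, and the receptor CCR1 6.88 TPM in NB4 against 0.374 TPM in Kasumi-1. Of 27 integrins and adhesion genes, 16 were compared, 3 at least 2-fold higher in NB4 and 10 in Kasumi-1 (median -1.63). ITGB2, the beta chain of leukocyte integrins, had 77.6 TPM in NB4 against 15.9 TPM in Kasumi-1, and SELPLG, the selectin ligand PSGL-1, 30.6 TPM in NB4 against 0.589 TPM in Kasumi-1. ESAM, a junctional protein also found on stem cells, had 0.0877 TPM in NB4 against 47.6 TPM in Kasumi-1, JAM3 1.13 TPM in NB4 against 32.8 TPM in Kasumi-1, ITGA9 0.0199 TPM in NB4 against 10.2 TPM in Kasumi-1, and ITGB1 78.0 TPM in NB4 against 258 TPM in Kasumi-1. N-cadherin, CDH2, was listed at 0 in NB4 and had 13.1 TPM in Kasumi-1. Of 21 coagulation and fibrinolysis genes, which matter in promyelocytic leukaemia because of its bleeding disorder, 9 were compared, 3 at least 2-fold higher in NB4 and 5 in Kasumi-1; their median was -1.07, -0.11 with genes down to 1 TPM and -0.72 with a floor of 10 TPM. F3, tissue factor, had 14.8 TPM in NB4 against 4.08 TPM in Kasumi-1, and S100A10, the plasminogen-binding partner of annexin A2, 39.8 TPM in NB4 against 3.50 TPM in Kasumi-1. ANXA2 itself had 87.8 TPM in NB4 against 185 TPM in Kasumi-1, PLAU, urokinase, 20.8 TPM in NB4 against 92.4 TPM in Kasumi-1, and F2R, the thrombin receptor, 0.707 TPM in NB4 against 28.7 TPM in Kasumi-1. S100A10 did not keep its side in the treated libraries (61.2 to 93.6 TPM in NB4 against 24.7 to 103 TPM in Kasumi-1).

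Markers of other cell types were scarce. Of 30 erythroid and megakaryocyte markers, 3 reached the floor, and the globin genes HBA1, HBA2, HBB, HBG1 and HBG2, and PF4 and VWF, were listed at 0 in both lines; the summed level of the list was 124 TPM in NB4 against 179 TPM in Kasumi-1, most of it GYPC and, in NB4, NFE2. Of 16 epithelial and fibroblast markers, EPCAM alone was compared, at 20.6 TPM in NB4 against 24.9 TPM in Kasumi-1, and KRT19, KRT5, KRT14, COL1A2 and COL3A1 were at 0 in both. Of 26 lymphoid markers, 7 were compared, 3 at least 2-fold higher in NB4 and 2 in Kasumi-1, while MS4A1, CD7, RAG2, DNTT and GZMB were at 0 in both. PRF1, perforin, had 26.7 TPM in NB4 and was listed at 0 in all 4 Kasumi-1 libraries, and NKG7, a granule protein of killer cells, had 55.7 TPM in NB4 against 0.834 TPM in Kasumi-1. CD3D had 4.85 TPM in NB4 against 11.5 TPM in Kasumi-1. Of 16 mast cell and basophil markers, HDC and LTC4S (10.0 TPM in NB4 against 0.00119 TPM in Kasumi-1) were higher in NB4 and KIT in Kasumi-1, and FCER1A, HPGDS and ADCYAP1 were at 0 in both. Of the 21 receptors that chlorprothixene is known to bind, 0 were compared, and the highest value in either line was 3.41 TPM.

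Inflammatory signalling genes differed in sets of few members. Of 20 genes of the NF-kB pathway, 13 were compared, 1 at least 2-fold higher in NB4 and 7 in Kasumi-1 (median -1.22). TNFAIP3, the A20 deubiquitinase, had 8.58 TPM in NB4 against 86.5 TPM in Kasumi-1, NFKBIZ 5.18 TPM in NB4 against 34.2 TPM in Kasumi-1, and IL1B, interleukin-1 beta, 0.284 TPM in NB4 against 15.1 TPM in Kasumi-1. NFKBIA, the main inhibitor, had 33.5 TPM in NB4 against 79.3 TPM in Kasumi-1, and TNFAIP2 13.3 TPM in NB4 against 0.133 TPM in Kasumi-1. Limma on the treated libraries called 7 of the 13 higher in NB4 and 1 lower, the 1 being among the 7 higher in untreated Kasumi-1. Over all genes compared, it called 30.7% higher in NB4 and 26.7% lower. These calls have no fold cut, so they are not the same measure as the untreated counts. Of 23 Toll-like receptor and inflammasome genes, 11 were compared, 4 at least 2-fold higher in NB4 and 6 in Kasumi-1; their median was -1.10, and 0.86 when genes down to 1 TPM were let in. IRAK1 had 393 TPM in NB4 against 107 TPM in Kasumi-1, NLRP3, an inflammasome sensor, 16.7 TPM in NB4 against 1.61 TPM in Kasumi-1, while CASP1, the caspase it activates, had 5.32 TPM in NB4 and was listed at 0 in untreated Kasumi-1. TLR2 was listed at 0 in NB4 and had 5.40 TPM in Kasumi-1. Of 38 interferon-stimulated genes, 21 were compared, 6 at least 2-fold higher in NB4 and 5 in Kasumi-1 (median -0.42, and 0.17 with a floor of 10 TPM). Beside MX2, BST2, tetherin (176 TPM in NB4 against 28.6 TPM in Kasumi-1), and the membrane proteins IFITM1 (132 TPM in NB4 against 25.1 TPM in Kasumi-1) and IFITM2 (238 TPM in NB4 against 25.9 TPM in Kasumi-1) were higher in NB4. IFITM3, a close copy of IFITM2, had 4.52 TPM in NB4 against 90.6 TPM in Kasumi-1, and how reads divide between such copies is uncertain. IFIT1 had 4.92 TPM in NB4 against 13.3 TPM in Kasumi-1, IFI6 13.1 TPM in NB4 against 41.8 TPM in Kasumi-1, and MX1, the paralogue of MX2, 1.26 TPM in NB4 against 0.253 TPM in Kasumi-1. Of 17 antigen presentation genes outside the chromosome 6 region, 9 were compared, 2 at least 2-fold higher in NB4 and 3 in Kasumi-1. IFI30, a lysosomal thiol reductase, was listed at 0 in NB4 and had 14.0 TPM in Kasumi-1, CD74, the invariant chain, had 0.119 TPM in NB4 against 6.62 TPM in Kasumi-1, and ERAP1, a peptide-trimming enzyme, 9.71 TPM in NB4 against 43.1 TPM in Kasumi-1.

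Among genes of cell death, 8 of 12 BCL2 family genes, 14 of 21 death receptor and caspase genes and 10 of 18 p53 targets were within 2-fold, against 70.3% of all genes compared. Of 17 BCL2 family genes, 12 were compared, 1 at least 2-fold higher in NB4 and 3 in Kasumi-1. BBC3, the BH3-only protein PUMA, had 21.4 TPM in NB4 against 2.91 TPM in Kasumi-1. BIK had 1.41 TPM in NB4 against 24.5 TPM in Kasumi-1, BOK 0.177 TPM in NB4 against 5.05 TPM in Kasumi-1, and PMAIP1, NOXA, 27.0 TPM in NB4 against 62.9 TPM in Kasumi-1. The survival genes BCL2 (18.7 TPM in NB4 against 11.5 TPM in Kasumi-1), MCL1 (110.3 TPM in NB4 against 203 TPM in Kasumi-1) and BCL2L1 (27.0 TPM in NB4 against 52.9 TPM in Kasumi-1) stayed within 2-fold. Of 21 death receptor and caspase genes compared, 5 were at least 2-fold higher in NB4 and 2 in Kasumi-1, with CASP4 at 38.6 TPM in NB4 against 1.04 TPM in Kasumi-1, FAS at 15 TPM in NB4 against 0.686 TPM in Kasumi-1, and TNFSF10, the ligand TRAIL, at 16.3 TPM in NB4 against 51.6 TPM in Kasumi-1. Of 18 p53 target genes compared, 5 were at least 2-fold higher in NB4 and 3 in Kasumi-1. CDKN1A, the inhibitor p21, had 0.344 TPM in NB4 against 8.81 TPM in Kasumi-1, GADD45A 21.6 TPM in NB4 against 133 TPM in Kasumi-1, and TP53INP1 was listed at 0 in NB4 and had 7.56 TPM in Kasumi-1.

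Most genes of replication and mitosis were within 2-fold, as were 70.3% of all genes compared, while several G1 regulators were not. Of 39 DNA replication genes, 34 were within 2-fold (3 higher in NB4, 2 in Kasumi-1, median -0.04), and of 30 mitosis genes 29 were (0 higher in NB4, UBE2C higher in Kasumi-1). In the treated libraries limma called 24 of the replication genes higher in NB4 and 2 lower, and 15 of the mitosis genes higher and 1 lower. Over all genes compared, it called 30.7% higher in NB4 and 26.7% lower. The D-type cyclins and their partners differed by gene. CCND3 had 167 TPM in NB4 against 9.03 TPM in Kasumi-1, CCND1 26.8 TPM in NB4 against 0.321 TPM in Kasumi-1, and CCND2 and CDK6 are given above. In the treated libraries CCND3 stayed at 184 to 214 TPM in NB4 against 7.39 to 13.4 TPM in Kasumi-1 (limma log2 4.27, SE 0.21, adjusted p = 7.38e-05, 3 of 3 times). Of the CDK inhibitors, CDKN2C had 29.6 TPM in NB4 against 133 TPM in Kasumi-1, CDKN1B 46.9 TPM in NB4 against 133 TPM in Kasumi-1, and CDKN2D 22.6 TPM in NB4 against 2.86 TPM in Kasumi-1. CDKN2A, which encodes p16 and ARF (hg19 chromosome 9, 21967751 to 21995300, minus strand), was listed at 0 in untreated NB4 and at most 0.169 TPM in treated NB4, against 18.1 TPM in untreated Kasumi-1 and 34.1 to 54.2 TPM in treated Kasumi-1. Its neighbour MTAP, a methionine salvage enzyme (21802542 to 21931646, plus strand), was listed at 0 in all 4 NB4 libraries and had 18.7 TPM in untreated Kasumi-1 and 6.13 to 10.9 TPM in treated Kasumi-1. KLHL9 (21329670 to 21335379), on the far side of MTAP, was expressed in both, at 30 TPM in NB4 against 9.32 TPM in Kasumi-1, and CDKN2B was at 0 in all 8 libraries. The DNA at this locus was not measured.

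Among metabolic genes, several of amino acid transport and synthesis were at least 2-fold higher in NB4. Of 26 genes of serine, one-carbon and related amino acid metabolism, 23 were compared, 9 at least 2-fold higher in NB4 and 3 in Kasumi-1 (median 0.81), and their summed level was 5689 TPM in NB4 against 2408 TPM in Kasumi-1. The large amino acid transporter SLC7A5 had 729.7 TPM in NB4 against 106 TPM in Kasumi-1, the glutamine transporter SLC1A5 1073 TPM in NB4 against 236 TPM in Kasumi-1, and the cystine transporter SLC7A11 33.8 TPM in NB4 against 2.91 TPM in Kasumi-1. PSAT1, of serine synthesis, had 415 TPM in NB4 against 92.2 TPM in Kasumi-1, and SHMT2 490 TPM in NB4 against 203 TPM in Kasumi-1. CBS, the first enzyme of transsulfuration, was listed at 0 in NB4 and had 18.1 TPM in Kasumi-1, and CHAC1, a glutathione-degrading enzyme, had 0.0913 TPM in NB4 against 37.2 TPM in Kasumi-1. Of 26 glycolysis and hypoxia genes compared, 5 were at least 2-fold higher in NB4 and 2 in Kasumi-1. SLC16A3, the lactate exporter MCT4, had 233 TPM in NB4 against 6.27 TPM in Kasumi-1, ALDOA 1381 TPM in NB4 against 469.7 TPM in Kasumi-1, PKM 1015 TPM in NB4 against 435 TPM in Kasumi-1, and LDHB 4583 TPM in NB4 against 2020 TPM in Kasumi-1. HK1, the hexokinase of most cells, stood apart, with 3.38 TPM in NB4 against 232 TPM in Kasumi-1, and 2.62 to 7.06 TPM in treated NB4 against 148 to 272 TPM in treated Kasumi-1.

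Sterol genes leaned to Kasumi-1 in the untreated pair. Of 25 cholesterol synthesis and uptake genes compared, 0 were at least 2-fold higher in NB4 and 7 in Kasumi-1, with a median of -0.66. SQLE, the squalene epoxidase, had 44.4 TPM in NB4 against 154 TPM in Kasumi-1, and IDI1 40.0 TPM in NB4 against 162 TPM in Kasumi-1. Of the 7 on the Kasumi-1 side, limma on the treated libraries called 2 lower in NB4. Of all 25 it called 15 higher in NB4 and 5 lower, by adjusted p with no fold cut. Over all genes compared, the shares so called were 30.7% and 26.7%. CYP51A1, lanosterol demethylase, was the exception in size, with 0.211 TPM in NB4 against 95.8 TPM in Kasumi-1, and at most 0.277 TPM in any NB4 library. Of 16 fatty acid genes, 4 were at least 2-fold higher in NB4, with ACSL1 at 59.9 TPM in NB4 against 8.18 TPM in Kasumi-1 and ME1 at 15.8 TPM in NB4 against 2.24 TPM in Kasumi-1, and 3 in Kasumi-1, with FADS1 at 27.0 TPM in NB4 against 95.5 TPM in Kasumi-1.

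In the sets of respiration and of the ribosome, most members were within 2-fold, as were 70.3% of all genes compared. Of 36 nuclear genes of oxidative phosphorylation, 33 were within 2-fold and 3 higher in NB4 (median 0.05), and of 50 cytosolic ribosomal protein genes, 46 were within 2-fold and 4 higher in NB4, among them RPS28 (1330 TPM in NB4 against 211 TPM in Kasumi-1) and RPS6 (4308 TPM in NB4 against 1228 TPM in Kasumi-1), genes with many processed pseudogene copies. The 13 mitochondrially encoded mRNAs were all within 2-fold with a median of -0.55, and limma on the treated libraries called 9 of them lower in NB4 and 0 higher. Of 25 ribosome biogenesis genes, 5 were at least 2-fold higher in NB4 and 0 in Kasumi-1 (median 0.43), with NCL, nucleolin, at 1314 TPM in NB4 against 527 TPM in Kasumi-1. In the treated libraries 18 of these were called higher in NB4 and 1 lower, and of the 36 oxidative phosphorylation genes 19 higher and 1 lower. Over all genes compared, limma called 30.7% higher in NB4 and 26.7% lower. Among 29 lysosomal genes, 24 were within 2-fold, with CTSH at 169.6 TPM in NB4 against 14.4 TPM in Kasumi-1 and CTSZ, another cathepsin, at 86.1 TPM in NB4 against 376 TPM in Kasumi-1.

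**Figure D4:**
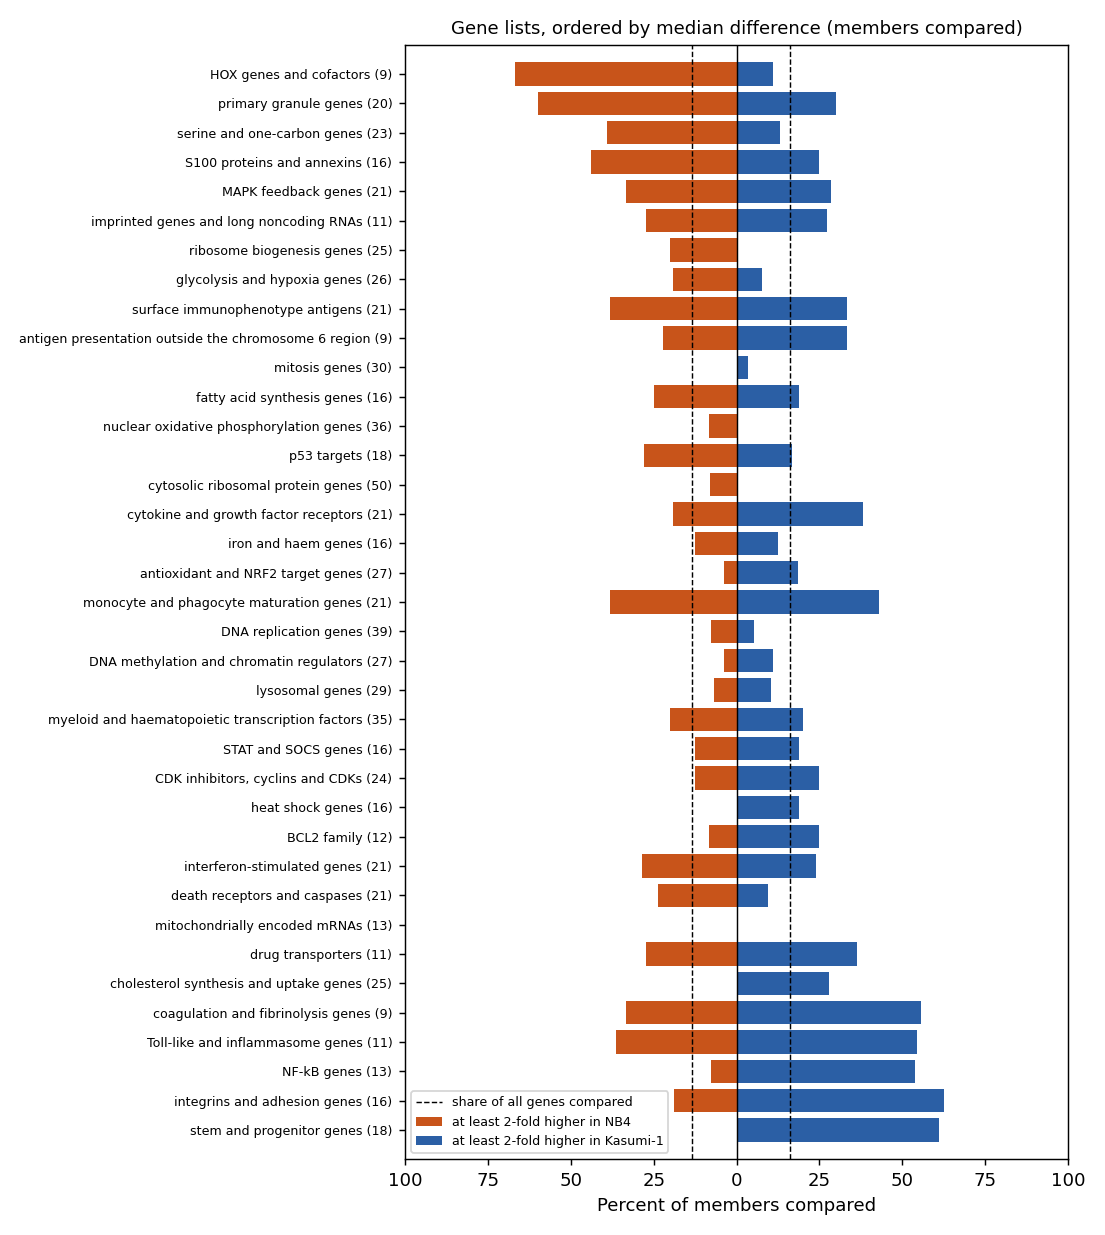
For each gene list with at least 9 members compared, bars give the percent of those members at least 2-fold higher in NB4 (left) and in Kasumi-1 (right), ordered from the highest to the lowest median difference; dashed lines mark the shares over all genes, 13.5% and 16.2%. HOX genes and primary granule genes stand at the top, stem and progenitor genes at the bottom, and mitosis and oxidative phosphorylation genes show short bars.

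Of the antioxidant, metallothionein and heat shock genes past 2-fold, more were on the Kasumi-1 side than on the NB4 side. The shares over all genes compared were 16.2% higher in Kasumi-1 and 13.5% higher in NB4. The antioxidant and heat shock counts on the Kasumi-1 side were near the first of these shares. Of 27 antioxidant and NRF2 target genes compared, 1 was at least 2-fold higher in NB4 and 5 in Kasumi-1, with GSTM1 at 2.02 TPM in NB4 against 66.0 TPM in Kasumi-1 and its paralogue GSTM2 at 15.5 TPM in NB4 against 3.43 TPM in Kasumi-1. In the treated libraries limma called 14 of the 27 higher in NB4 and 7 lower, against 30.7% and 26.7% of all genes compared. Of 16 iron and haem genes compared, 2 were at least 2-fold higher in NB4, among them FTH1, ferritin heavy chain (751 TPM in NB4 against 218 TPM in Kasumi-1), and 2 in Kasumi-1, FECH, which inserts iron into haem (12.2 TPM in NB4 against 39.3 TPM in Kasumi-1), and TFR2. Of 6 metallothionein genes compared, MT2A had 342 TPM in NB4 against 2084 TPM in Kasumi-1, and MT1G 0.117 TPM in NB4 against 32.0 TPM in Kasumi-1, whereas MT1F had 14.2 TPM in NB4 and was listed at 0 in all 4 Kasumi-1 libraries. Of 16 heat shock genes, 13 were within 2-fold, against 70.3% of all genes compared. HSPB1 had 83.1 TPM in NB4 against 448 TPM in Kasumi-1. Of the 3 heat shock genes past 2-fold, all on the Kasumi-1 side, limma on the treated libraries called 1 lower in NB4, and of all 16 it called 7 higher and 2 lower.

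Feedback genes of growth factor signalling were past 2-fold on both sides. Of 21 MAPK feedback genes compared, 7 were at least 2-fold higher in NB4 and 6 in Kasumi-1. Limma on the treated libraries called 13 of the 21 higher in NB4 and 3 lower, with 7 of the 7 and 3 of the 6 on their untreated side. The Sprouty inhibitor genes SPRY4 (14.9 TPM in NB4 against 0.108 TPM in Kasumi-1) and SPRY1 (29.1 TPM in NB4 against 3.02 TPM in Kasumi-1) and the ETS factor ETV4 (82.5 TPM in NB4 against 11.1 TPM in Kasumi-1) were higher in NB4. The immediate early genes DUSP1 (5.20 TPM in NB4 against 40.9 TPM in Kasumi-1), JUN (10.3 TPM in NB4 against 38.4 TPM in Kasumi-1) and JUND (33.7 TPM in NB4 against 102 TPM in Kasumi-1) were higher in Kasumi-1, with EGR1 given above.

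Further single genes past 2-fold were found among S100 proteins and annexins, drug transporters, chromatin regulators and long noncoding RNAs. Over all genes compared, 13.5% were at least 2-fold higher in NB4 and 16.2% in Kasumi-1. Of 16 S100 and annexin genes, 7 were at least 2-fold higher in NB4 and 4 in Kasumi-1, and limma on the treated libraries called 2 of those 7 higher in NB4. ANXA1 had 86.3 TPM in NB4 against 0.602 TPM in Kasumi-1, where treated libraries held 19.4 to 69.7 TPM, and ANXA6 had 85.7 TPM in NB4 against 465 TPM in Kasumi-1. Of 11 drug transporters compared, 3 were at least 2-fold higher in NB4 and 4 in Kasumi-1. SLC22A16, a carnitine and anthracycline carrier, had 0.0948 TPM in NB4 against 53.2 TPM in Kasumi-1, and ABCC4 10.1 TPM in NB4 against 49.5 TPM in Kasumi-1, while ABCA1, a cholesterol exporter, had 12.5 TPM in NB4 and was listed at 0 in Kasumi-1; in treated NB4 it had 0.438 to 0.619 TPM. Of 27 chromatin regulators, 23 were within 2-fold, against 70.3% of all genes compared. TET1 had 5.05 TPM in NB4 against 26.6 TPM in Kasumi-1. Of 11 imprinted genes and long noncoding RNAs compared, 3 were at least 2-fold higher in each line. NEAT1, the RNA of nuclear paraspeckles, had 6.13 TPM in NB4 against 75.8 TPM in Kasumi-1, and PVT1, beside MYC, 68.3 TPM in NB4 against 20.6 TPM in Kasumi-1. Of 20 cancer-testis and germline genes, PRAME alone was compared, and the other 19 stayed under 1 TPM in both lines.

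By position, the medians of some chromosomes stood away from 0. The shares over all genes compared, 13.5% at least 2-fold higher in NB4 and 16.2% in Kasumi-1, are the background for the counts here. The windows named were picked by hand from those with the most extreme medians. The median difference over the genes of an autosome was highest on chromosome 15 (0.55, 398 genes, 127 of them at least 2-fold higher in NB4), chromosome 13 (0.52, 212 genes, 63 at least 2-fold higher in NB4) and chromosome 11 (0.39). It was lowest on chromosome 18 (-0.61, 155 genes, 45 at least 2-fold higher in Kasumi-1) and chromosome 22 (-0.52, 287 genes, 79 at least 2-fold higher in Kasumi-1). In the treated pairs the medians at 6, 12 and 24 h were 0.56, 0.61 and 0.53 on chromosome 15 and -0.56, -0.45 and -0.59 on chromosome 18. Within windows of 10 Mb on hg19, 17 of 20 genes between 20 and 30 Mb of chromosome 15 were at least 2-fold higher in NB4 (median 2.85); the 9 annotated as protein-coding had a median of 1.72, among them UBE3A, a ubiquitin ligase (87.8 TPM in NB4 against 30.8 TPM in Kasumi-1), HERC2 (53.6 TPM in NB4 against 17.0 TPM in Kasumi-1) and NIPA2 (119 TPM in NB4 against 35.5 TPM in Kasumi-1). Between 0 and 10 Mb of chromosome 9, 13 of 20 genes were at least 2-fold higher in NB4, with KANK1 at 48.2 TPM in NB4 against 3.06 TPM in Kasumi-1 and CBWD1 at 162 TPM in NB4 against 33.5 TPM in Kasumi-1. Between 140 and 150 Mb of chromosome 8, 33 of 74 genes were at least 2-fold higher in Kasumi-1 (median -0.89), and PTK2, focal adhesion kinase, was listed at 0 in NB4 and had 113 TPM in Kasumi-1. Between 120 and 130 Mb of the same chromosome, 17 of 29 genes were at least 2-fold higher in Kasumi-1, with MTSS1 at 0.852 TPM in NB4 against 187 TPM in Kasumi-1 and DEPTOR, an inhibitor of mTOR, at 2.61 TPM in NB4 against 105 TPM in Kasumi-1, while MYC in that window was higher in untreated NB4. Copy number was not measured, and its part in these medians was not tested.

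**Figure D5:**
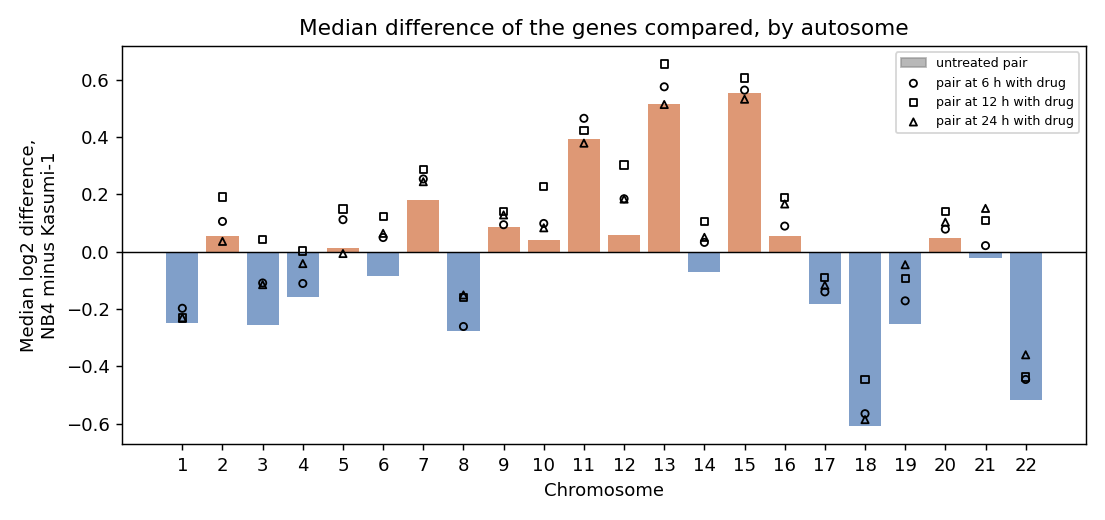
Bars give the median log2(TPM + 1) difference, NB4 minus Kasumi-1, of the compared genes of each autosome in the untreated pair, and open symbols the same at 6, 12 and 24 h with chlorprothixene. Chromosomes 15, 13 and 11 lie above 0 and 18 and 22 below it in all 4 pairs.

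In 11 stretches of at least 3 neighbouring compared genes, each gene differed by at least 8-fold to the same side. The SLFN11, SLFN12 and SLFN13 genes on chromosome 17 (33677324 to 33775856) were all on the NB4 side, with SLFN13 at 25.6 TPM in NB4 against 0.0682 TPM in Kasumi-1 and SLFN12 at 8.01 TPM in NB4 and listed at 0 in all 4 Kasumi-1 libraries. SERPINB1, SERPINB9 and SERPINB6 on chromosome 6 (2832566 to 2972090) were all on the Kasumi-1 side; SERPINB9, the inhibitor of granzyme B, was listed at 0 in untreated NB4 and had 40.2 TPM in Kasumi-1. The IL8, CXCL1, CXCL3 and CXCL2 genes on chromosome 4 (74606223 to 74965010) formed another such stretch, as did CYTL1, STK32B, EVC2 and EVC nearer the start of that chromosome (5016313 to 5830772), where CYTL1, a cytokine-like protein of CD34+ cells, had 15.3 TPM in NB4 against 173 TPM in Kasumi-1. In limma on the treated libraries each gene was called in the same direction in 10 of the 11 stretches, these included. The exception was CCL3L3, CCL4L1, CCL3L1 and CCL4L2 on chromosome 17 (34522268 to 34641846), close copies on the Kasumi-1 side, of which 2 of 4 were called. Nearly all genes past 8-fold were called in this way, 299 of 312 on the NB4 side and 519 of 531 on the Kasumi-1 side. The calls within stretches are therefore no separate support for them.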

How the data were processed

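The series holds 8 RNA-seq libraries of 2 leukaemia cell lines, 1 for each line untreated and at 6, 12 and 24 h of treatment, so no condition has a replicate. Per the submitters' processing notes, the authors aligned reads to hg19 with HISAT2 and quantified genes with StringTie; their versions, the annotation and the use of strand are not stated there. According to the labels and per the file headers, the authors deposited TPM, FPKM and coverage for each of 57820 gene IDs. TPM was used for every comparison, FPKM as an alternative, and the deposited coverage only to compare depth between libraries. Read counts are not in these units, so no count test was run.

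TPM were summed by symbol (55765 symbols, 301 of them with more than 1 row), and genes with at least 5 TPM in either untreated library were kept, without 40 between 28 and 34 Mb of chromosome 6. Gene types came from GENCODE 29 and matched 91.4% of symbols. The untreated pair was compared by log2(TPM + 1) in NB4 minus Kasumi-1, with 2-fold and 8-fold classes and no p-value. The 6 treated libraries were tested with limma 3.58.1 (R 4.3.3) on log2(TPM + 1), with line and time as terms, two-sided, adjusted by Benjamini-Hochberg over 11525 genes, and the fit was tested on simulated data. These p-values measure only the spread between these libraries, under the drug. Tables and plots used Python 3.11.15, numpy 2.4.6, pandas 2.3.3 and matplotlib 3.10.9. Promoters are RefSeq windows on GRCh38.p14.

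The text names up to 15 protein-coding genes each way with the largest untreated difference that were at least 2-fold different at each treated time, the members of the fusion, leukaemia type, progenitor and granule lists, and from other lists members past 2-fold and key members that were not. The members and lists were chosen with earlier results of these data known, so their counts are descriptions and no independent support. Genes of the Y chromosome and of X inactivation are not named. Other pseudocounts, expression floors, scalings and left-out libraries were tried.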

Additional observations from a re-analysis of the deposited data

Results flagged for a closer look

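For 3 genes the untreated pair and each of the 3 treated pairs differed by at least 2-fold in opposite directions; the difference between untreated and treated cells was not tested, since each condition has 1 library. ICAM1, the adhesion receptor of leukocyte integrins (hg19 chromosome 19, 10381511 to 10397291), had a log2 difference of -2.98 untreated, with 6.58 TPM in NB4 against 59.0 TPM in Kasumi-1. At 6, 12 and 24 h the differences in ICAM1 were 2.23, 3.24 and 3.05, with 340, 494 and 379 TPM in NB4 against 71.8, 51.5 and 44.7 TPM in Kasumi-1. TNFAIP3 (chromosome 6, 138188351 to 138204449) had a difference of -3.19 untreated and 2.46, 1.89 and 1.5 at 6, 12 and 24 h. Its level at these times was 184, 185 and 197 TPM in NB4 against 32.5, 49.3 and 69.3 TPM in Kasumi-1. RAB8B, a small GTPase of vesicle transport, had a difference of -1.20 untreated (12.4 TPM in NB4 against 29.9 TPM in Kasumi-1) and 1.09, 1.33 and 1.02 at 6, 12 and 24 h.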

How the results depend on the processing

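The counts of genes past 2-fold kept within 1.5 times their value under each alternative run: with a pseudocount of 0.1 TPM they were 1654 in NB4 and 1971 in Kasumi-1, with the median of all genes set to 0 they were 1626 and 1783, and with TPM rescaled without mitochondrial and the 10 most abundant genes 1527 and 2004. The 8-fold counts moved further. On the FPKM scale they were 178 in NB4 and 283 in Kasumi-1, against 312 and 531 on TPM; by construction an added 1 is larger beside FPKM values. Leaving out the genes listed at 0, an alternative chosen after seeing the data, gave 216 in NB4 and 323 in Kasumi-1, so many genes in the Kasumi-1 class rest on a 0 in NB4.

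Of 814 list members and named genes, 333 were past 2-fold; 13 of these were no longer past it on FPKM, 11 others came in with the smaller pseudocount and 0 changed direction. Medians of small lists moved with the floor, as given beside the t(8;21), chemokine and coagulation lists. Among lists with a median past 2-fold, the sign changed in these. Mast cell and basophil markers had -0.74 on rescaled TPM (5 genes) against 1.38 as reported. Toll-like receptor and inflammasome genes had 0.86 with a floor of 1 TPM (17 genes) against -1.10. In these lists the added genes are the cause by construction. Medians nearer to no difference also changed sign in some lists. Interferon-stimulated genes had 0.17 with a floor of 10 TPM against -0.42 as reported. Monocyte and phagocyte genes had 0.92 with a floor of 1 TPM against -0.04.

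In the treated libraries, leaving out 1 library at a time gave 2428 to 3218 genes higher in NB4 and 2289 to 2834 lower, against 3533 and 3076, and without the replicate block of time 3547 and 3081. No paired analysis was possible because the untreated pair has 1 library a line. Differences of genes near the 5 TPM floor rest on few reads, whose number is not known, and differences between close gene copies depend on how reads were assigned.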
